A study of Mus musculus with 12 samples.

Results

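The mitochondrial ribosomal protein genes are the nuclear genes whose symbols begin with Mrpl or Mrps followed by a digit. Pseudogenes were left out. The rule found 78 genes among the 22462 genes of the deposited ribosome profiling table, and all 12 libraries were used. Mouse embryonic stem cells, abbreviated ESCs, were set against epiblast-like cells, or EpiLCs, the next state of pluripotent cells after the naive one. ESCs grew in Knockout DMEM with fetal bovine serum, together with LIF and the 2i inhibitors PD0325901 (against MEK) and CHIR99021 (against GSK3), and it is LIF and 2i that hold them in the naive state. EpiLCs came from the same kind of culture about 56 hours after the LIF and 2i medium was withdrawn. For each state there were 3 libraries of total RNA and 3 of RPFs, ribosome protected fragments, which are stretches of mRNA that a ribosome shielded from nuclease. The labels name no cell line, while the study's list of materials gives a V6.5 line with miR290-mCherry and miR302-GFP reporters for its differentiation experiments. The study calls its replicates biological, but no source used here says whether they were separate differentiations, and the p-values measure the spread between these libraries.

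Mitochondrial ribosomal proteins are made in the cytosol, imported into mitochondria and assembled with mitochondrial rRNA into the mitoribosome. Its small subunit reads the mRNA and its large subunit joins amino acids. The mitoribosome makes only the few proteins encoded in mitochondrial DNA, which are core subunits of the respiratory chain and of ATP synthase. Many of its proteins descend from bacterial ribosomal proteins, and others were added in the mitochondrial lineage. For the nuclear mRNAs described here, RPFs come from cytosolic ribosomes. They report how the mitoribosome's parts are made, not how the mitoribosome itself works.

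Each library held 2681439 to 14655015 counts, fewest in EpiLC RPF replicate 2. Levels are given as CPM, read counts in millionths of the TMM-scaled library size, with the SD over 3 libraries. The sum over markers of other cell types, the expression filter and the CPM of 3 counts used total counts without TMM scaling. EpiLC libraries carried the marks of the transition. All 6 naive markers fell in total RNA (log2 fold changes from -5.52 to -3.45) and all 4 formative or primed markers rose (from 2.98 to 5.76). Pou5f1, Sox2 and Nanog, listed as markers of both states, also fell (from -2.72 to -0.65). Summed over 17 marker genes of other cell types, the level was 68.7 to 75.0 CPM in ESC total RNA and 42.5 to 55.0 CPM in EpiLC total RNA. Of those 17 genes 9 passed the expression filter. In total RNA 4 of the 9 rose and 2 fell, all past a log2 fold change of 1, with changes over the 9 from -3.24 to 4.77. The part of these other cells in the results below was not tested. In bulk libraries, fewer cells with an mRNA and less of it per cell cannot be told apart.

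Mitochondrial ribosomal protein genes took a smaller share of the EpiLC libraries than of the ESC libraries in both assays. In total RNA they held 0.426%, 0.424% and 0.427% of all counts in the 3 ESC libraries and 0.370%, 0.353% and 0.381% in the 3 EpiLC libraries. In RPFs the shares were 0.558%, 0.559% and 0.555% in ESCs and 0.489%, 0.488% and 0.484% in EpiLCs. The groups did not overlap in either assay. Over the same libraries, the 83 cytosolic ribosomal protein genes held 2.19% ± 0.0472 of ESC total RNA and 2.23% ± 0.0812 of EpiLC total RNA (SD, n = 3). The 13 protein genes of mitochondrial DNA held 0.612% ± 0.0409 and 0.746% ± 0.107. Only uniquely mapped reads were counted, and sequence that either of these sets shares with other loci was not examined.

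**Figure D1:**
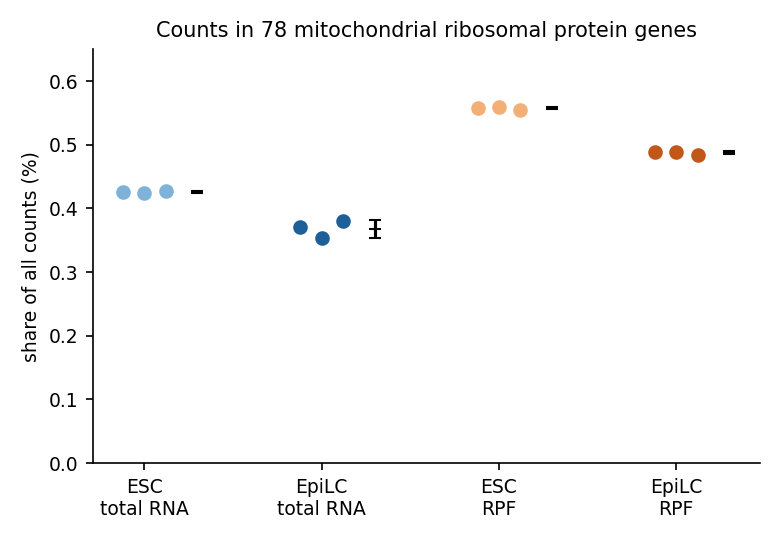
Share of each library's counts (y axis, percent) that fell in the 78 mitochondrial ribosomal protein genes, for the 4 groups on the x axis. Points are single libraries and black bars the mean ± SD of 3; EpiLC libraries, at 0.353% to 0.381% of total RNA and 0.484% to 0.489% of RPFs, lie below all ESC libraries of the same assay.

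Of the 78 genes, 76 passed the filter of at least 3 CPM in at least 3 libraries and were tested with voom and limma over all 11750 genes that passed. Mrpl23, a large subunit protein, and Mrps36 did not pass. In total RNA 37 of the 76 genes fell in EpiLCs and 3 rose at an adjusted p below 0.05, where 30.7% of all genes tested fell and 34.6% rose. The median log2 fold change was -0.21 over the 76 genes and 0.03 over all genes. Libraries of the 2 states did not overlap in 42 genes that were lower in EpiLCs and in 4 that were higher, against 33.4% and 36.9% of all genes. No gene passed a log2 fold change of 1 in either direction, although 24.3% of all genes did. The family's changes were thus mostly downward and small.

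Mrpl35, a large subunit protein with a bacterial counterpart, had the largest fall of the family in total RNA. Its level was 88.4, 91.5 and 87.6 CPM in the ESC libraries and 45.5, 43.7 and 54.7 CPM in the EpiLC libraries. Every EpiLC library was below every ESC library, and the log2 fold change was -0.90 ± 0.09 (SE, limma's adjusted p = 1.67e-09). Mrps2, a small subunit protein, stood at 48.1, 46.9 and 49.5 CPM in ESCs and at 32.1, 31.9 and 27.4 CPM in EpiLCs. Again the groups did not overlap, and it fell by 0.66 ± 0.10 (limma's adjusted p = 3.08e-06). Mrps12, which lines the decoding centre of the small subunit, read 26.8, 25.5 and 27.0 CPM in ESCs against 17.6, 17.9 and 16.3 CPM in EpiLCs. That is a fall of 0.61 ± 0.13 on the log2 scale (limma's adjusted p = 0.000135). Mrps5, of the small subunit near the path of the mRNA, and Mrpl4, of the large subunit near the exit tunnel, also fell. Mrps5 dropped by 0.59 ± 0.09 (limma's adjusted p = 1.92e-06), and Mrpl4 dropped by 0.55 ± 0.10 (limma's adjusted p = 4.45e-05).

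Among RPFs, 35 of the 76 genes fell and 7 rose, where 28.7% of all genes fell and 31.1% rose. The median log2 fold change of RPFs was -0.24 over the family and 0.01 over all genes. Libraries did not overlap in 33 genes that were lower in EpiLCs and in 9 that were higher, against 30.9% and 32.2% of all genes. With a correction for coding GC content, 46 genes fell and 2 rose in RPFs, where 35.1% of all genes fell and 26.8% rose, and the median was -0.36 over the family and -0.09 over all genes. Only Mrpl35 passed a log2 fold change of 1, which 26.0% of all genes did. Its RPF level was 111, 127 and 109 CPM in ESCs and 55.4, 51.0 and 54.6 CPM in EpiLCs, a log2 fold change of -1.07 ± 0.11 (limma's adjusted p = 3.82e-09).

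Mrps12 and Mrpl42 followed in RPFs. Mrps12 had 51.7, 56.2 and 55.0 CPM in ESCs and 30.1, 34.6 and 21.8 CPM in EpiLCs, a log2 fold change of -0.99 ± 0.13 (limma's adjusted p = 7.71e-07). Mrpl42, a large subunit protein of the mitochondrial lineage, had 29.5, 39.8 and 42.9 CPM in ESCs and 22.0, 16.7 and 16.9 CPM in EpiLCs. The groups of Mrpl42 did not overlap, though ESC replicate 1 lay closer to the EpiLC libraries than the other two did. Its log2 fold change was -0.99 ± 0.18 (limma's adjusted p = 3.96e-05). Mrpl47, a large subunit protein at the exit of the peptide tunnel, was at 68.7, 70.0 and 71.2 CPM in ESCs and at 48.1, 48.3 and 28.5 CPM in EpiLCs. EpiLC replicate 3 was the lowest library, and the log2 fold change was -0.84 ± 0.15 (limma's adjusted p = 3.56e-05). For Mrpl39, also of the large subunit, RPFs went from 172, 147 and 150.2 CPM to 81.9, 95.1 and 92.5 CPM, with no overlap. This was a fall of 0.81 ± 0.09 on the log2 scale (limma's adjusted p = 4.77e-08).

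**Figure D2:**
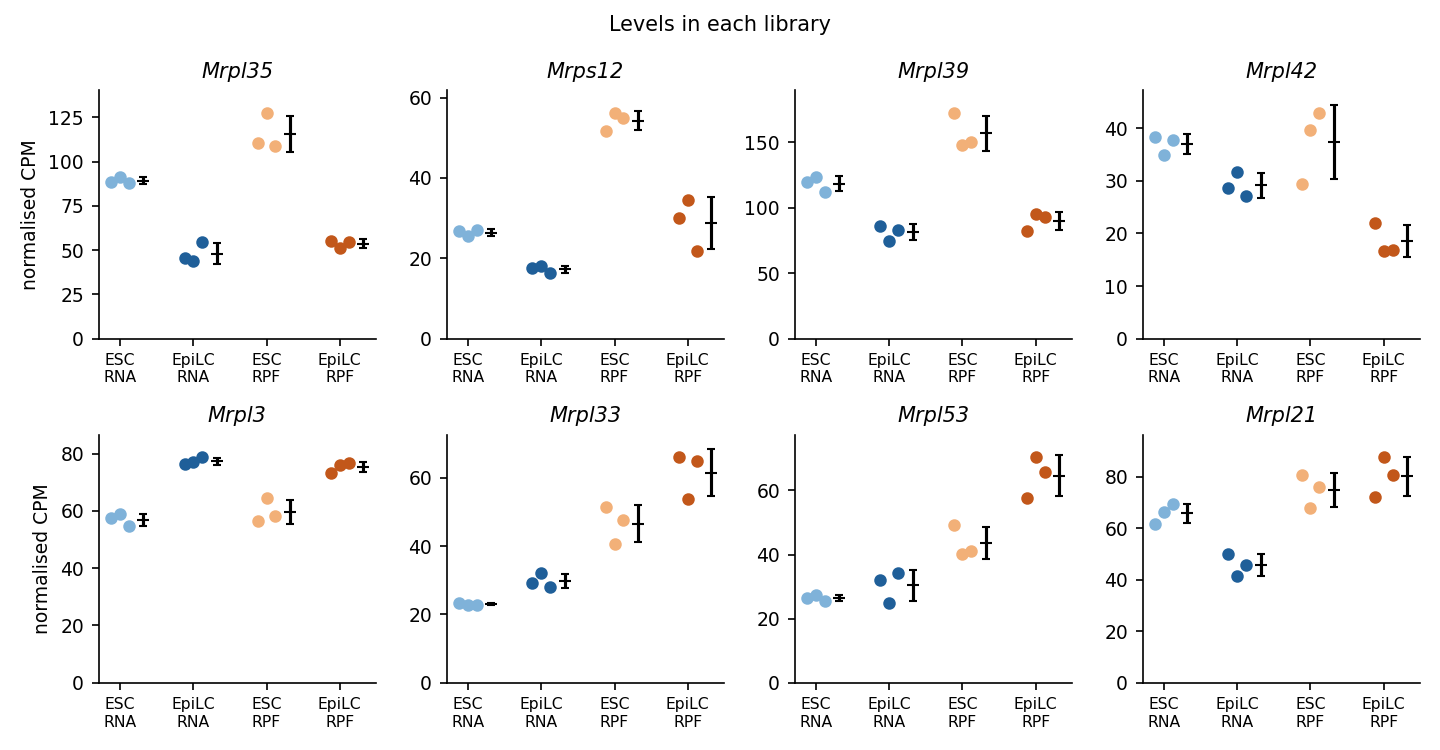
Normalised CPM (y axis, from 0) of 8 mitochondrial ribosomal protein genes in each library, with the 4 groups on the x axis. Points are single libraries and black bars the mean ± SD of 3; the top row holds 4 genes whose EpiLC libraries lie below the ESC libraries in both assays, such as Mrpl35 (88.4 to 45.5 CPM in replicate 1 of total RNA), and the bottom row Mrpl3, Mrpl33, Mrpl53 and Mrpl21.

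Few members rose. Mrpl3, a large subunit protein that reaches towards the site of peptide bond formation, rose in both assays. Its total RNA was 57.5, 58.8 and 54.6 CPM in ESCs and 76.3, 76.9 and 78.7 CPM in EpiLCs, a log2 fold change of 0.44 ± 0.07 (limma's adjusted p = 1.36e-05). Its RPF level was 56.4, 64.5 and 58.3 CPM in ESCs and 73.4, 76.1 and 76.8 CPM in EpiLCs, a change of 0.35 ± 0.09 (limma's adjusted p = 0.00206). Neither assay showed overlap. Mrpl33, a very short large subunit protein, had 23.3, 22.8 and 22.8 CPM of total RNA in ESCs and 29.3, 32.0 and 28.1 CPM in EpiLCs. Its RPFs were at 51.3, 40.6 and 47.7 CPM in ESCs and at 65.9, 53.6 and 64.7 CPM in EpiLCs, again without overlap. It rose by 0.36 ± 0.11 in total RNA (limma's adjusted p = 0.00576) and by 0.41 ± 0.11 in RPFs (limma's adjusted p = 0.00244). Mrpl11, at the base of the stalk that recruits translation factors, rose in total RNA by 0.22 ± 0.08 (limma's adjusted p = 0.0203). That call was lost under DESeq2 (log2 fold change 0.17, adjusted p = 0.10005) and when any of 9 of the 12 libraries was left out, with an adjusted p of 0.186 without EpiLC total RNA replicate 1.

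Of the 7 genes that rose in RPFs, 5 did not pass the test in total RNA: Mrpl34, Mrpl38, Mrpl53, Mrps18a and Mrps34. Mrpl53, a large subunit protein of the mitochondrial lineage, had 49.2, 40.2 and 41.2 CPM of RPFs in ESCs and 57.7, 70.4 and 65.7 CPM in EpiLCs. Its log2 fold change was 0.55 ± 0.12 (limma's adjusted p = 0.000315), and 0.14 with an adjusted p of 0.323 once coding GC content was corrected for. Mrps34, a small subunit protein with 63.8% GC in its coding sequence, had 51.8, 50.8 and 45.4 CPM of RPFs in ESCs and 72.8, 55.5 and 61.6 CPM in EpiLCs. It rose by 0.39 ± 0.12 (limma's adjusted p = 0.00637), but read -0.06 (adjusted p = 0.683) with that correction. Mrps18a rose by 0.31 ± 0.12 (limma's adjusted p = 0.0299), which the correction took to 0.21 (adjusted p = 0.138). Leaving out EpiLC RPF replicate 3 took the Mrps18a change to 0.13 (adjusted p = 0.418), and leaving out ESC RPF replicate 1 to 0.19 (adjusted p = 0.204). Its call was also lost without replicate 2 of either RPF group (adjusted p = 0.0648 and 0.0793). The Mrps34 call was lost without EpiLC RPF replicate 1 (0.25, adjusted p = 0.126) and without ESC RPF replicate 3 (0.29, adjusted p = 0.0758). Mrpl38 rose by 0.29 ± 0.08 in RPFs (limma's adjusted p = 0.00234) while its total RNA changed by 0.01 ± 0.08. With the GC correction its RPF change was 0.04 (adjusted p = 0.636), at 59.8% GC. Mrpl34, at 65.6% GC, rose by 0.32 in RPFs (limma's adjusted p = 0.0484) and read -0.23 (adjusted p = 0.144) with the correction. Of the 7 rises, those of Mrpl3 and Mrpl33 passed the test with the correction. The median RPF change over all genes was -0.09 with the correction.

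Set side by side, the assays gave the same direction for most genes called. Among the 76 genes, 30 fell in both assays and 2, Mrpl3 and Mrpl33, rose in both, where 24.3% of all genes tested fell in both and 27.0% rose in both. None was called in opposite directions. Total RNA alone fell for 7 genes, among them Mrpl18, Mrpl21, Mrps10 and Mrps24, and RPFs alone fell for 5, among them Mrpl46, Mrpl51 and Mrps22. A further 26 were called in neither. Shares over all genes were not counted for calls in a single assay, in neither or in opposite directions. The difference between assays was tested as the change in translation efficiency below, and a call in only one assay does not show that the assays differed. Over the 76 genes the RPF change followed the total RNA change with Pearson's r of 0.762 and Spearman's rho of 0.751, against 0.953 and 0.909 over all genes. These are descriptions across genes, which share libraries and span a far narrower range of change in this family.

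**Figure D3:**
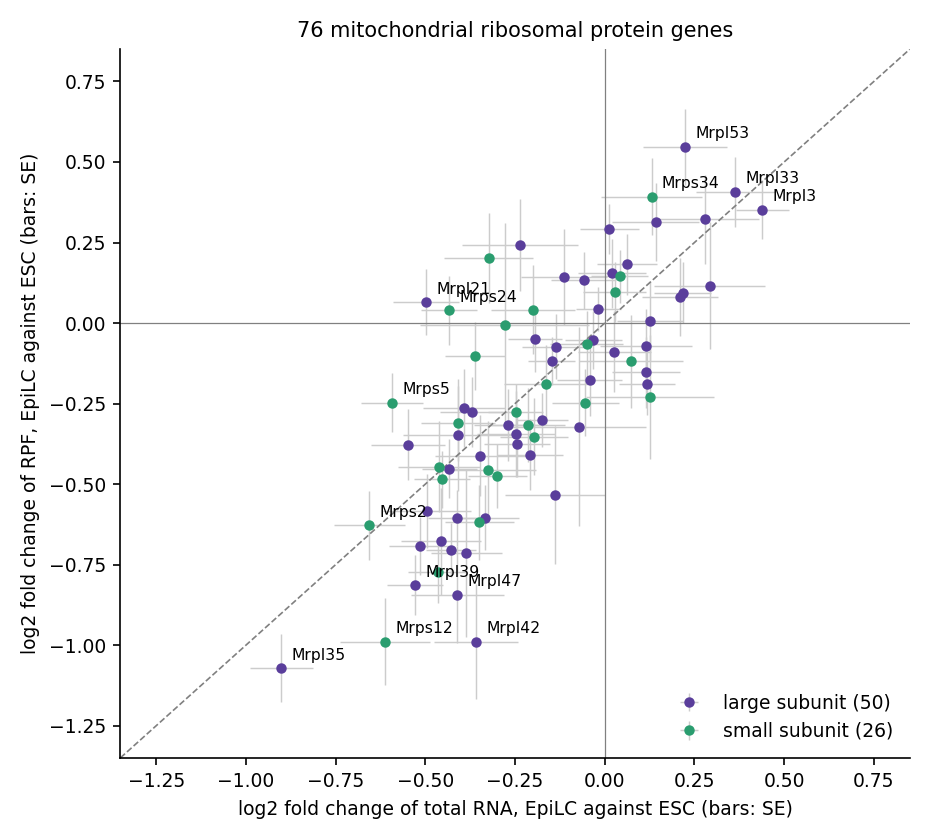
Log2 fold change of RPFs (y axis) against that of total RNA (x axis), EpiLC against ESC, for 76 mitochondrial ribosomal protein genes, coloured by subunit, with SE bars and a dashed line of equal change. Most genes lie in the lower left, down to Mrpl35 at -0.90 and -1.07; Mrpl3 and Mrpl33 lie in the upper right, and Mrpl21 and Mrps24 lie left of the line near an RPF change of 0.

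The counts were also read by subunit and by origin, beside the all-gene shares of 30.7% lower and 34.6% higher in total RNA and 28.7% lower and 31.1% higher in RPFs. Of 50 large subunit genes tested, 23 fell and 3 rose in total RNA, with a median of -0.16, and 21 fell and 6 rose in RPFs, with a median of -0.18. Of 26 small subunit genes, 14 fell and 0 rose in total RNA, with a median of -0.29, and 14 fell and 1 rose in RPFs, with a median of -0.25. By origin, 27 of 45 genes with a bacterial counterpart fell in total RNA (median -0.30), and 10 of 31 genes of the mitochondrial lineage did (median -0.15), a share of 32.3% that is near that of all genes. In RPFs the counts were 21 of 45 and 14 of 31, or 46.7% and 45.2%. These classes were compared by counts and medians only, so no difference between them is claimed.

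The 3 same-numbered sets of libraries each gave a negative median for the family in total RNA, at -0.21, -0.25 and -0.19, and in RPFs, at -0.21, -0.08 and -0.23. The corresponding medians over all genes were 0.01, 0.05 and 0.03 in total RNA and 0.01, 0.02 and 0.02 in RPFs. Replicate 2, whose EpiLC RPF library was the shallowest, had the RPF median closest to 0.

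Some symbols name proteins whose place or function departs from the family's pattern. Mrpl12 sits in several copies on the flexible stalk of the large subunit. Its total RNA was 61.4, 55.0 and 62.4 CPM in ESCs and 55.6, 69.4 and 52.7 CPM in EpiLCs, overlapping groups, with a log2 fold change of -0.04 ± 0.09 (limma's adjusted p = 0.698). Its RPFs changed by -0.18 ± 0.11 (limma's adjusted p = 0.176), and by -0.42 with an adjusted p of 0.00249 after GC correction. Mrpl32, which is matured by the m-AAA protease inside mitochondria, fell by 0.25 ± 0.11 in total RNA (limma's adjusted p = 0.0481) and by 0.34 ± 0.13 in RPFs (limma's adjusted p = 0.0277). The total RNA call was lost under edgeR (adjusted p = 0.0772) and when any of 5 of the 6 total RNA libraries was left out (adjusted p from 0.0616 to 0.188). The RPF call was lost without ESC RPF replicate 3, EpiLC RPF replicate 1 or EpiLC RPF replicate 2 (adjusted p from 0.0639 to 0.0982), and the RPF change was -0.56 without EpiLC RPF replicate 3.

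The 3 Mrps18 paralogs occupy different sites, Mrps18b and Mrps18c in the small subunit and Mrps18a in the large. Mrps18c, the form closest to the bacterial protein, fell by 0.41 ± 0.10 in total RNA (limma's adjusted p = 0.00119) and by 0.31 ± 0.12 in RPFs (limma's adjusted p = 0.0251; 0.0630 without EpiLC RPF replicate 2). Mrps18b fell by 0.32 ± 0.11 in RPFs (limma's adjusted p = 0.0194; 0.0810 without EpiLC RPF replicate 3) and had a total RNA change of -0.21 ± 0.11 (limma's adjusted p = 0.0763). That total RNA change passed the test with DESeq2's size factors (-0.26, adjusted p = 0.0362) and when any of the 6 RPF libraries was left out (adjusted p from 0.0398 to 0.0480). Mrps18a had a total RNA change of 0.14 ± 0.12 (limma's adjusted p = 0.312), beside the RPF rise given above. Whether the paralogs differed from each other was not tested. Mrps30, named for the small subunit but built into the large one, stood at 129, 125 and 126 CPM of total RNA in ESCs and at 112, 112 and 121 CPM in EpiLCs. The groups did not overlap, yet the change of -0.15 ± 0.07 missed the threshold (limma's adjusted p = 0.0535); it passed with DESeq2 (adjusted p = 0.0200) and under GC correction (adjusted p = 0.0288). Its RPF change was -0.12 ± 0.07 (limma's adjusted p = 0.178), with -0.19 and an adjusted p of 0.0438 without ESC RPF replicate 2, and -0.21 and an adjusted p of 0.0202 under GC correction.

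Mrps36 carries a ribosomal name but is now known as a subunit of the 2-oxoglutarate dehydrogenase complex. It had 0 to 17 counts per library, and Mrpl23 had 1 to 9. Both were too low to test. For a library, 3 counts correspond to 0.205 to 1.12 CPM, a limit that covers counting error only. Every 28-nt window of the counted Mrps36 coding sequence, and 88.7% of those of Mrpl23, also occurs exactly in a transcript annotated elsewhere in the genome, including pseudogenes of each. The deposited counts hold only reads that mapped to a single position.

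Translation efficiency (TE) is the RPF level over the total RNA level, and its change was tested as an interaction in the same limma model. Of the 76 genes 1 rose in TE and 0 fell, where 0.570% of all genes rose and 0.630% fell. edgeR also gave 1 rise and 0 falls, and DESeq2 gave 2 rises and 0 falls. At an unadjusted p below 0.05, limma had 6 genes with a higher and 6 with a lower TE, edgeR 5 and 5, and DESeq2 5 and 4. Shares over all genes were not counted for edgeR, for DESeq2 or at an unadjusted p, so these counts have no baseline here. The median TE change was -0.055 over the family and 0.01 over all genes, and the 3 same-numbered sets did not share a sign (-0.04, 0.09 and -0.08). No gene of the family passed a log2 TE change of 1, which 0.255% of all genes did.

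Mrpl21, a large subunit protein, was the gene called. Its total RNA fell from 61.6, 66.3 and 69.2 CPM in ESCs to 49.8, 41.5 and 45.6 CPM in EpiLCs (log2 fold change -0.50 ± 0.09, limma's adjusted p = 3.83e-05). Its RPFs were 80.8, 67.9 and 75.8 CPM in ESCs and 72.2, 87.5 and 80.5 CPM in EpiLCs (0.07 ± 0.10, limma's adjusted p = 0.598). The total RNA groups were apart while the RPF groups overlapped, and the TE change was 0.56 ± 0.14 (limma's adjusted p = 0.0392). The call was lost with GC correction (0.52, adjusted p = 0.0594), with no expression filter (0.57, adjusted p = 0.0813) and when any of 7 of the 12 libraries was left out (adjusted p from 0.0779 to 0.103).

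The next largest TE changes did not pass the test. Mrps10, a small subunit protein, had 0.52 ± 0.19 (limma's adjusted p = 0.181) and Mrpl27, near the site of peptide bond formation, had 0.48 ± 0.22 (limma's adjusted p = 0.319). Mrps24, of the small subunit, had 0.47 ± 0.13 (limma's adjusted p = 0.0749) and was the other gene that DESeq2 called (adjusted p = 0.0382). Its total RNA went from 72.0, 69.7 and 69.4 CPM in ESCs to 51.5, 48.7 and 55.8 CPM in EpiLCs, while its RPFs were 47.2, 49.4 and 44.3 CPM and then 46.5, 47.9 and 48.6 CPM. At the other end Mrpl42 had -0.63 ± 0.21 (limma's adjusted p = 0.158), Mrpl47 -0.43 ± 0.20 (limma's adjusted p = 0.331) and Mrpl51 -0.39 ± 0.25 (limma's adjusted p = 0.529). Without ESC RPF replicate 1, the library in which Mrpl42 had its lowest ESC level, the Mrpl42 change was -0.81 (adjusted p = 0.0349). The Mrpl27 change was 0.27 (adjusted p = 0.647) without EpiLC total RNA replicate 1. Without EpiLC RPF replicate 3 the Mrpl47 change was -0.12 (adjusted p = 0.845), and without ESC RPF replicate 1 that of Mrpl51 was -0.23 (adjusted p = 0.753). Of the 28-nt windows, 62.0% of Mrps10, 66.7% of Mrpl27, 49.7% of Mrpl42 and 68.9% of Mrpl51 also occur in transcripts elsewhere. For Mrpl47 it was 19.2%, and for Mrps24 it was 0%. The part of these windows in the TE changes was not tested.

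Levels per counted length differed among the members although most are built into the mitoribosome as a single copy. Over the 6 RPF libraries the mean was highest for Mrpl24 (384 ± 13.8 CPM per kb, SD over both states), Mrpl33 (353 ± 64.3) and Mrps14 (301 ± 58.9). Mrpl24, a large subunit protein near the exit tunnel, ranged from 359 to 394 CPM per kb, and Mrpl33 from 266 to 431, so these neighbours in the order overlapped. Mrps14, a small subunit protein, ranged from 233 to 375. The order depended on the state: in ESCs it began with Mrpl24 (379 ± 18.1 CPM per kb of RPFs, SD, n = 3), Mrps14 (351 ± 25.0), Mrpl52 (323 ± 34.6) and Mrpl33 (304 ± 35.4). In EpiLCs it began with Mrpl33 (402 ± 44.4), Mrpl24 (389 ± 8.16), Mrpl34 (261 ± 63.6) and Mrps14 (251 ± 22.9). The multi-copy Mrpl12 ranked 31 of 78 at 118 ± 10.5 CPM per kb of RPFs and 21 of 78 in total RNA. At the bottom, below Mrpl30, Mrps33 and Mrpl41, were Mrpl48 at 14.9 ± 1.84 CPM per kb, Mrps36 at 2.44 ± 1.49 and Mrpl23 at 0.649 ± 0.509.

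The spread among the 76 tested genes, as the SD of log2 CPM per kb within a library, was 0.94 ± 0.02 in ESC RPF, 0.97 ± 0.01 in EpiLC RPF, 0.86 ± 0.01 in ESC total RNA and 0.85 ± 0.03 in EpiLC total RNA (SD over 3 libraries). All genes tested spread by 2.20 to 2.62, and 64 cytosolic ribosomal protein genes by 2.81 to 3.31. Of 83 cytosolic genes these 64 passed the filter. Windows shared with other transcripts were not counted for them, and what unique mapping did to their spread was not tested. The 8 lowest genes by RPF level per length all had windows shared with other transcripts. Other genes with such windows ranked as high as 3 of 78 (Mrps14, with 9.94% of its windows shared). Mrps16, with 55.6% shared, ranked 20. The median RPF level was 114 CPM per kb for members without shared windows and 76.3 CPM per kb for members with them. Among the 78 genes 31 have such windows and 47 have none, and over the 47 the SD was 0.66 in ESC RPF, 0.74 in EpiLC RPF, 0.65 in ESC total RNA and 0.66 in EpiLC total RNA. Among the lowest, 88.6% of windows were shared for Mrps33, 61.9% for Mrpl48, 60.7% for Mrpl41 and 50.5% for Mrpl30. What these shared windows did to the counts was not tested.

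**Figure D4:**
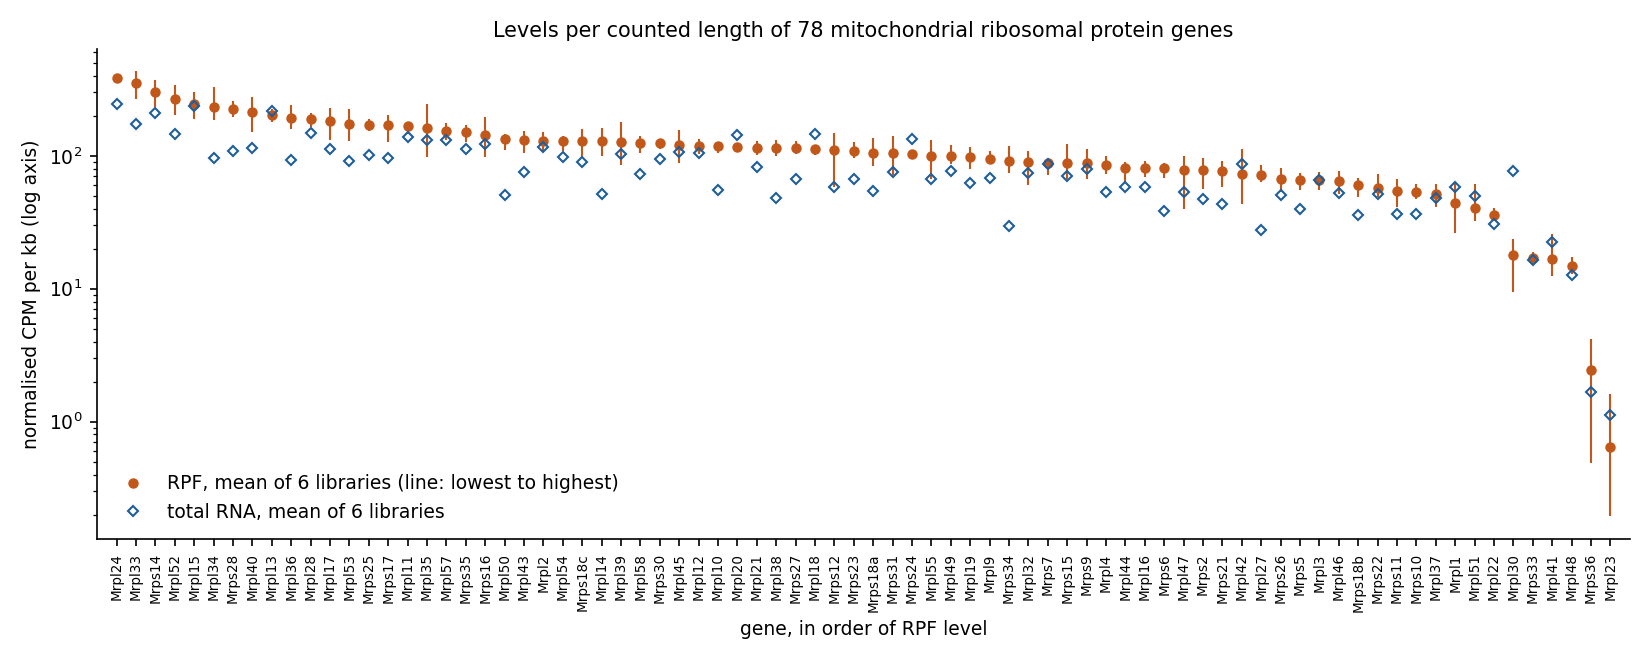
Normalised CPM per kb of counted coding sequence (y axis, log scale) of the 78 mitochondrial ribosomal protein genes in order of RPF level (x axis). Orange points are the mean of 6 RPF libraries with a line from the lowest to the highest, blue diamonds the mean of 6 total RNA libraries; levels run from 384 for Mrpl24 down to 14.9 for Mrpl48, with Mrps36 and Mrpl23 far below.

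RPFs exceeded total RNA for most of the family. In ESCs RPFs were higher than total RNA for 58 of 76 genes and lower for 5, where 33.0% of all genes were higher and 34.5% lower, and the median log2 TE was 0.45 over the family, against -0.02 over all genes. In EpiLCs 47 were higher and 7 lower, against 31.3% and 33.0% of all genes, and the median was 0.48. The counted lengths of the family are short, with a median of 559.5 nt against 1437 nt over all genes, and short genes had higher TE in these libraries. Over the 5008 genes within the family's range of lengths (153 to 1284 nt) the median log2 TE was 0.30 in ESCs and 0.32 in EpiLCs, with 47.2% higher and 20.0% lower in ESCs and 44.9% higher and 18.9% lower in EpiLCs. Spearman's rho of TE in ESCs with length was -0.409 over all genes and -0.195 over the family. Compared within the family, the TE levels of EpiLCs and ESCs had a Pearson's r of 0.920, against 0.891 over all genes. Spearman's rho was 0.883 in the family and 0.892 over all genes. These are descriptions in which each state's RPF and RNA libraries are shared among genes.

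The highest log2 TE in ESCs belonged to Mrpl50 (1.495 ± 0.11, SE), Mrps34 (1.49 ± 0.13) and Mrpl14 (1.38 ± 0.10), and the highest in EpiLCs to Mrps34 (1.75 ± 0.14), Mrpl27 (1.68 ± 0.16) and Mrpl38 (1.39 ± 0.08). No pair of these neighbours was tested against each other. The lowest in ESCs was Mrpl30, followed by Mrps24 (-0.60 ± 0.08) and Mrpl18 (-0.43 ± 0.08), a protein of the large subunit's central protuberance. In EpiLCs Mrpl30 was followed by Mrpl42 (-0.63 ± 0.18) and Mrpl1 (-0.56 ± 0.16), the protein of the mobile L1 stalk. Shared 28-nt windows made up 66.7% for Mrpl27, 49.7% for Mrpl42 and 34.8% for Mrpl18. The share was 0% for Mrpl50, Mrps34, Mrpl14, Mrpl38, Mrps24 and Mrpl1.

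Mrpl30, a large subunit protein, stood apart in both states. Its total RNA was 38.6, 37.7 and 39.0 CPM in ESCs and 30.1, 27.7 and 29.6 CPM in EpiLCs. Its RPFs were 10.4, 8.51 and 9.36 CPM in ESCs and 4.15, 9.13 and 6.0 CPM in EpiLCs. RPFs were below total RNA in every library, with a log2 TE of -2.01 ± 0.15 in ESCs (limma's adjusted p = 1.43e-11) and -2.33 ± 0.24 in EpiLCs (limma's adjusted p = 4.25e-09). Short and long windows differ for this gene: 50.5% of its 28-nt windows recur in other transcripts (Gm11945, Gm6238 and Gm15196), but 9.33% of its 50-nt windows do. By the study's methods, RPF reads were kept at shorter lengths than total RNA reads. The part of these windows in its TE was not tested.

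The coding stretches of Mrpl30 and Mrpl21 are shown because the first has the lowest TE and the second the one called TE change, and both share windows with other transcripts. Each is 300 nt, coding positions 46 to 345 (counted from the start codon), from Gencode transcripts on GRCm38. Capitals mark bases inside a 28-nt window that occurs exactly in a transcript elsewhere.
Mrpl30 (coding bases within chr1:37894010-37898264, + strand): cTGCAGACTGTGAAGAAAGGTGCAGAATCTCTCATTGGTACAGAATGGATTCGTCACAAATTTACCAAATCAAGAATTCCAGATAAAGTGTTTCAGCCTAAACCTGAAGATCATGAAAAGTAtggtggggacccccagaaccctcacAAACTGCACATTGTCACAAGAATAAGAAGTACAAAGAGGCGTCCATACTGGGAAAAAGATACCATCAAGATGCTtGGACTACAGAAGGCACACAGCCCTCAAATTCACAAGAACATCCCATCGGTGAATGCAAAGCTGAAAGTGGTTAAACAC
Mrpl21 (coding bases within chr19:3283117-3292521, + strand): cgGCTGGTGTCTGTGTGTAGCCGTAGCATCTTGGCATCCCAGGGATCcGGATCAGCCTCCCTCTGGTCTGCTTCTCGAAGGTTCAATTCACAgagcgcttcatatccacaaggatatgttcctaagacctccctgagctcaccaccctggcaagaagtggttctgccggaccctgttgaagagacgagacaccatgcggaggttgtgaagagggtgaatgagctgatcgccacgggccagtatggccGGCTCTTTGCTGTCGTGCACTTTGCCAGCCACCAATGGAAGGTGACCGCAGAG
In Mrpl30 the capitals cover most of the stretch. In Mrpl21 they fall in blocks at both ends, and 35.8% of its 28-nt windows and 19.0% of its 50-nt windows are shared, with D9Wsu149 alone.

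By share of repeated windows, the 47 genes with none had a median log2 TE of 0.61 in ESCs, with 40 called higher and 2 lower. The 11 genes with up to 30% of windows repeated had a median of 0.37, and the 18 tested genes above 30% had 0.21, with 9 higher and 2 lower. In EpiLCs the medians were 0.56, 0.26 and 0.32. The change between states did not follow this order: in total RNA the medians were -0.20, -0.18 and -0.24, and 22 of the 47 genes without repeated windows fell while 2 rose. In RPFs 21 of those 47 fell and 7 rose. All 7 genes that rose in RPFs were among the 47 genes, of 76 tested, without repeated windows. The part of repeated windows in these changes was not tested.

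**Figure D5:**
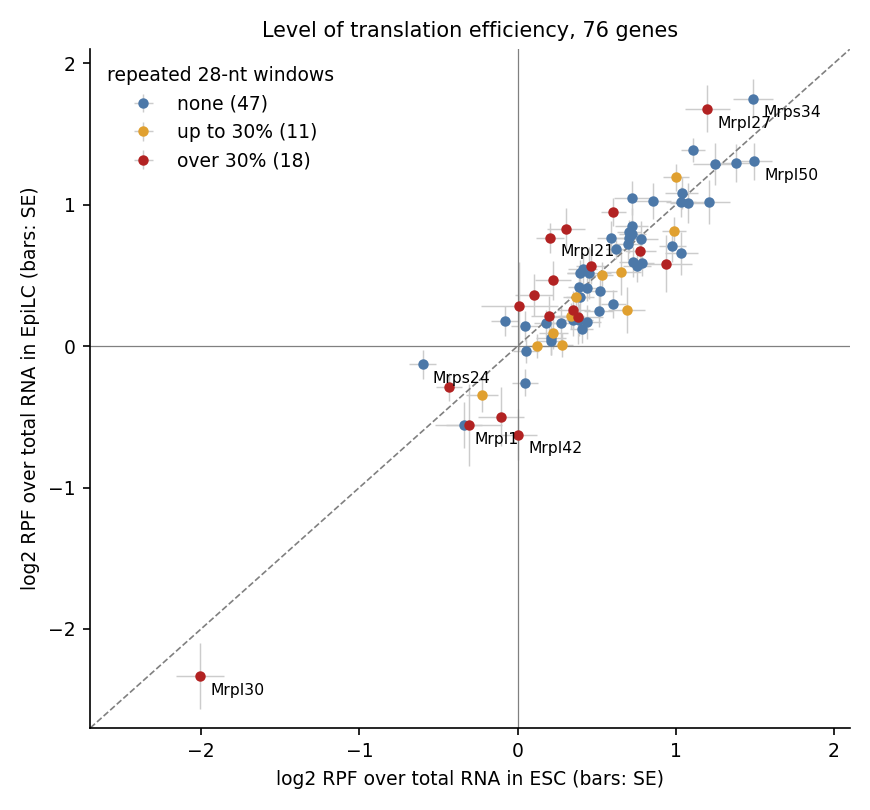
Log2 TE, the RPF level over the total RNA level, in EpiLCs (y axis) against ESCs (x axis) for 76 mitochondrial ribosomal protein genes, with SE bars, a dashed line of equality and colours for the share of 28-nt windows repeated in other transcripts. Most genes lie above 0 in both states, and Mrpl30 lies apart at -2.01 and -2.33.

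Other genes of mitochondrial translation, in lists chosen for this family, were read in the same fit. The counts of these lists, here and in the next paragraphs, stand beside the all-gene shares. Of all genes tested 30.7% fell and 34.6% rose in total RNA, and 28.7% fell and 31.1% rose in RPFs. The 5 mitoribosome proteins without an Mrp symbol comprised 4 that fell in both assays (Dap3, Aurkaip1, Ptcd3 and Gadd45gip1) and Chchd1, which rose in both. Dap3, a small subunit GTP-binding protein, fell by 0.32 ± 0.06 in total RNA and by 0.44 in RPFs, and Chchd1 rose by 0.39 ± 0.08 and 0.62. Of 14 mitochondrial translation factors, 8 fell and 1 rose in total RNA, and 7 fell and 0 rose in RPFs. The initiation factor Mtif3 fell by 0.76 ± 0.18 in total RNA and by 1.18 in RPFs, and the elongation factor Tufm by 0.59 ± 0.17 and 0.98. Mrrf, the ribosome recycling factor, rose by 0.55 ± 0.15 in total RNA, with an RPF change of 0.01. The medians of this list were -0.22 and -0.27.

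Of 26 assembly and rRNA modification genes tested, 11 fell and 4 rose in total RNA (median -0.13), and 10 fell and 3 rose in RPFs (median -0.22). The rRNA modifying enzymes Mettl15, Mrm2 and Nsun4 fell in total RNA by 1.17 ± 0.24, 1.08 ± 0.18 and 0.94 ± 0.13. Among those that rose were Noa1, a GTPase of small subunit assembly (0.57 ± 0.10), and Mettl17 (0.48 ± 0.11). Of the subunits of the m-AAA protease that matures Mrpl32, Afg3l2 fell by 0.46 ± 0.06 and Spg7 rose by 0.19 ± 0.07. No gene of these 3 lists was called for a TE change.

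Of 11 regulators of mitochondrial gene expression tested, 3 rose and 3 fell in each assay. That is 27.3% each way, near the all-gene shares given above. The subunits of the ETS factor GABP went opposite ways in total RNA, Gabpa falling by 0.72 ± 0.07 and Gabpb1 rising by 0.66 ± 0.09. Nrf1 changed by 0.16 ± 0.07, short of the threshold, and Yy1 rose by 0.25 ± 0.10. Myc rose by 3.63 ± 0.38. Polrmt, the mitochondrial RNA polymerase, and the coactivator Pprc1 fell by 0.66 ± 0.09 and 0.42 ± 0.06.

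The mitoribosome's own products are the proteins encoded in mitochondrial DNA. Of their 13 genes 7 passed the filter, and 5 of them rose and 0 fell in total RNA, with a median log2 fold change of 0.49. These mRNAs are translated by mitoribosomes, not by cytosolic ribosomes. Whether the RPF reads counted here are mitoribosome footprints was not tested, nor was any loss of reads shared with other loci. In RPFs 5 rose and mt-Nd6, a complex I subunit, fell. mt-Co1, the catalytic core of complex IV, had a TE change of 0.91 (limma's adjusted p = 0.00531), with a total RNA change of 0.10 ± 0.09. For comparison, of 64 cytosolic ribosomal protein genes tested 11 fell and 5 rose in total RNA, with a median of 0.00, and 12 fell and 18 rose in RPFs, with a median of 0.22. Over all genes 30.7% fell and 34.6% rose in total RNA, and 28.7% fell and 31.1% rose in RPFs. Sequence that the cytosolic genes share with other loci was not examined.

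Promoters were searched for 3 short motifs of factors that bind near genes of this kind, on both strands: GCGCATGCG for NRF1, CCGGAAG for ETS factors such as GABP, and AAGATGGCG for YY1. The RefSeq promoter table (GRCm38.p6, 300 bases each) held 75 promoters of 69 of the 78 genes. The NRF1 motif was in 9.33% of them and in 1.75% of all 32851 promoters, the ETS motif in 34.7% and 8.86%, and the YY1 motif in 10.7% and 1.40%. At least 1 of the 3 stood in 48.0% of member promoters and in 11.4% of all. Among the 33 genes with a promoter that fell in total RNA, 8 held the ETS motif, 3 the NRF1 motif and 6 the YY1 motif. Among the other 36 genes the counts were 18, 4 and 2. A match is a string of letters and was not tested as a binding site.

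The 4 promoters below belong to 2 genes that fell and 2 that rose in RPFs, and are examples that do not represent the family. With GC correction the Mrpl53 rise did not pass the test (0.14, limma's adjusted p = 0.323). Each line gives the 250 bases upstream of the annotated start, 5′ to 3′ on the gene's strand. Capitals mark motif matches.
Mrpl35 (chr6:71823785-71824034, - strand): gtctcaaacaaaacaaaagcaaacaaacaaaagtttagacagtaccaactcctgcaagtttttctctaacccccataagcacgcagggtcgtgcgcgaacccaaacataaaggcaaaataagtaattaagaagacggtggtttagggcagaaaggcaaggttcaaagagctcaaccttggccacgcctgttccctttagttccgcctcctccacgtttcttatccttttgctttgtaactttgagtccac
Mrpl39 (chr16:84735245-84735494, - strand): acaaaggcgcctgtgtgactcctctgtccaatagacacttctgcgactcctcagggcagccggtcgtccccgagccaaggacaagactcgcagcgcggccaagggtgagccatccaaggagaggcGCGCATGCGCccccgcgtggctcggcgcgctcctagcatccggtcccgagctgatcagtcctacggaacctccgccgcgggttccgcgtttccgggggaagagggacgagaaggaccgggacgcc
Mrpl3 (chr9:105053018-105053267, + strand): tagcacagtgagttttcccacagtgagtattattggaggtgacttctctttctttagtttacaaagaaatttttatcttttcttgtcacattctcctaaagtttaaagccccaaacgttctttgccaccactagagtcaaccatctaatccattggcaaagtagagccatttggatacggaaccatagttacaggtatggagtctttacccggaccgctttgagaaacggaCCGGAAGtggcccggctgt
Mrpl53 (chr6:83108858-83109107, + strand): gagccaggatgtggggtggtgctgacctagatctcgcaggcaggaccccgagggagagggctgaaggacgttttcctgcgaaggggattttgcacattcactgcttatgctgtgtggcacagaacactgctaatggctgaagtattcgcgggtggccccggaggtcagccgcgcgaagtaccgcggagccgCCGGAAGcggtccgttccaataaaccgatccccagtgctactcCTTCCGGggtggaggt
Mrpl35, with the largest fall, had none of the motifs in these bases. Mrpl39 had 2 overlapping NRF1 matches, which read the same letters on opposite strands. Mrpl3 had 1 ETS match close to its start, and Mrpl53 had 2, on opposite strands. Mrpl33, which also rose with GC correction, had 0 matches in its 250 bases. ETS matches also stood in promoters of genes that fell, such as Mrps16 and Mrps18c. Whether a motif goes with the direction of change was not tested.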

How the data were processed

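The authors deposited raw read counts per gene for 12 libraries, 3 each of ESC total RNA, EpiLC total RNA, ESC RPF and EpiLC RPF. By the study's methods, adapters were trimmed with cutadapt 1.14, reads were mapped with STAR 2.5.3a to mm10 with Gencode annotation, and only uniquely mapped reads were kept. Their 5′ ends were counted on the sense strand with featureCounts 1.5.3 over coding sequence, without its first 45 nt. Uniquely mapped reads miss sequence that a gene shares with another locus. The treatment of duplicate reads was not given in the sources used here.

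Of 22462 gene identifiers, 22385 were matched to a symbol and 77 were not. The 78 members share no counted base with another gene. Genes with at least 3 CPM in at least 3 libraries (11750) were fitted with voom and limma 3.58.1 in R 4.3.3, after TMM scaling with edgeR 4.0.16, as 1 model of 4 groups. The contrasts were EpiLC against ESC in total RNA and in RPFs, their interaction (TE change), and RPF against total RNA within each state. P-values were adjusted over all 11750 genes by Benjamini-Hochberg, and a call was an adjusted p below 0.05 with no fold limit. Per-length levels were CPM divided by counted coding length. The procedure was tested on simulated data with known changes.

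Alternatives were edgeR's quasi-likelihood test, DESeq2 1.42.0, other scalings and filters, a coding GC correction, a replicate block, a fold limit and leaving out each library. A set of members without repeated windows was chosen after seeing the data. Repeated windows were 28-nt or 50-nt stretches found exactly in a transcript of another locus. Promoters came from RefSeq (GRCm38.p6).

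Members and gene lists were chosen with earlier results of these data known. Members named singly were the 5 largest rises and falls per assay with the same sign in the 3 same-numbered sets, the called and the 3 most extreme TE changes, the 3 highest and lowest levels per length and by TE, those below the filter, and Mrpl12, Mrpl32, Mrps30, Mrps36 and the Mrps18 genes. Others named were chosen after their values were seen.

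Libraries of 1 group differed by more than sampling noise, with a chi-square per degree of freedom of 2.48 to 7.62 over same-group pairs. Depth ranged from 2681439 to 14655015 counts, so that 3 counts stand for 0.205 to 1.12 CPM.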

Additional observations from a re-analysis of the deposited data

Results flagged for a closer look

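The TE change of Mrpl21, a large subunit protein, was the single result that met a rule for a closer look, because its RPF and total RNA effects differed in a test of the difference itself. The change was 0.563 on the log2 scale (limma's interaction term, adjusted p = 0.0392). The log2 ratio of RPF to total RNA was 0.39, 0.04 and 0.13 in the same-numbered ESC libraries and 0.54, 1.08 and 0.82 in the EpiLC libraries, so that all 3 EpiLC values lay above all 3 ESC values. Of its 28-nt windows 35.8% are repeated in D9Wsu149, whose part in the change was not tested.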

How the results depend on the processing

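Of 307 values of the family's counts, medians and spreads under other settings, 258 stayed near the reported value and 49 moved. These values belong to 17 results, of which 3 stayed near the reported value in every setting. Of 53 single-gene results 35 kept the same reading in every setting. A fold limit left 0 genes higher and 0 lower in total RNA, 0 higher and 1 lower in RPFs, and 0 for TE. The 47 genes without repeated windows had 22 lower in total RNA, 21 lower in RPFs, 0 TE changes, 2 with lower RPF than total RNA in ESCs and 2 in EpiLCs, and spreads of 0.66 and 0.65 in RPFs and total RNA of ESCs and 0.74 and 0.66 in those of EpiLCs. Without division by length the spreads were 1.07, 1.05, 1.07 and 1.01. The total RNA median was -0.25 under DESeq2 and under its size factors, -0.24 without the filter, -0.27 with GC correction and -0.26 with GC correction and replicate block. Over all genes that median moved as well, from 0.03 in the main fit to -0.01 under DESeq2 and -0.02 under its size factors. It was 0.05 without the filter and -0.06 with GC correction, with or without the block. The RPF median was -0.36 with GC correction, with or without the block, and 2 genes then rose. With that correction the RPF median over all genes was -0.09, with or without the block. DESeq2 called 2 genes higher in TE (Mrpl21 and Mrps24) and 3 lower in RPF than total RNA in ESCs. No gene was called for TE without the filter or with GC correction. Without the filter the RPF median over all genes was 0.13.

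Leaving out each library gave 2 to 6 genes higher in total RNA (6 without EpiLC total RNA replicate 2), 28 to 41 lower, 5 to 7 higher in RPFs and 30 to 36 lower. TE rises ranged from 0 to 1 and falls from 0 to 1 (Mrpl42). RPFs exceeded total RNA for 53 to 59 genes in ESCs and 45 to 48 in EpiLCs, and were lower for 3 to 5 (3 without ESC RPF replicate 3) and 4 to 7 (4 without EpiLC RPF replicate 1). The medians ranged from -0.25 to -0.18 in total RNA, from -0.27 to -0.21 in RPFs and from -0.08 to -0.03 for TE. Over all genes the medians ranged from -0.01 to 0.04 in total RNA and from -0.03 to 0.01 in RPFs. The spreads ranged from 0.93 to 0.96, 0.85 to 0.86, 0.96 to 0.97 and 0.83 to 0.87, in the order above.

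Among single genes the direction turned for the Mrps34 RPF change (-0.058 with GC correction, -0.061 with the block added) and the Mrps30 TE change (-0.036 and -0.034, and -0.0073 to 0.081 over libraries left out). The RPF median over all genes was -0.087 with GC correction and -0.085 with the block added, against 0.01 in the main fit. Over libraries left out the direction also turned for Mrps18c TE (-0.0035 to 0.17), Mrpl32 TE (-0.28 to 0.022) and Mrpl12 total RNA (-0.12 to 0.026). The cause was not tested.

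The replicate numbers were not used to pair the libraries, although the study describes total RNA matched to the RPFs, and the following does not show that they were unpaired. Deviations of same-numbered libraries correlated at -0.174 to 0.122, above 0.1 in 1 of 12 pairs, and were highest with the own number in 6. With the replicate block, 3 genes rose and 38 fell in total RNA (median -0.21), 7 rose and 37 fell in RPFs (median -0.24), and 1 rose and 0 fell in TE.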
